A study of Mus musculus with 20 samples.

Results

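The genes described here encode the proteins of the cytosolic ribosome. They were chosen by symbol from the deposited gene table: protein-coding genes named Rpl or Rps followed by a digit, with Rpsa, Rplp0, Rplp1 and Rplp2. Ribosomal S6 kinases were left out, as were genes on the stretch of chromosome 10 around Abca7, which removed 1 match, Rps15. The rule found 105 of 43346 annotated genes. Of these, 76 are canonical ribosomal proteins, 10 are paralogs or other genes that share the name, and 19 carry a pseudogene-type symbol although the table lists them as protein-coding. The low-count filter kept 93 of the 105, including all 76 canonical genes, among 19623 genes tested. Fau and Rack1 also give ribosomal components but carry other names, and Rps19bp1 matched by name and is not a ribosomal protein.

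The RNA came from whole cortex of 5xFAD mice, in which mutated human transgenes under the neuronal Thy1 promoter lead to amyloid deposits. In the knockin (KI) groups Abca7 carried the p.A693S substitution, and in the control groups Abca7 was wild type. All groups were hemizygous for the transgenes (5xFAD+/-), so every comparison lies within amyloid-bearing mice. There were 5 libraries each of KI at 10 months, control at 10 months, KI at 3 months and control at 3 months. The labels describe male littermates and name heterozygous and homozygous knockin animals without saying which a KI library came from. Whether each library stands for its own animal is not spelled out, and p-values therefore describe library-to-library spread, which may be partly technical.

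A ribosome joins a small subunit, which reads the messenger RNA, to a large subunit, which forms the peptide bonds. Nearly every ribosomal protein is present in the same number per ribosome, and the genes are expressed at high and matched levels in all cells. Their messenger RNAs begin with a run of pyrimidines, the 5' terminal oligopyrimidine (TOP) motif, through which mTOR signalling adjusts their translation. In the brain, ribosomes also lie in dendrites, axons and glial processes, where proteins are made locally.

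The 5' ends of 9 canonical genes are shown, where a TOP run would lie if the RefSeq start is the one used. They are the 6 genes of smallest p between 10 and 3 months in KI and the 3 of largest p. Both were taken among genes with a printable RefSeq entry. Each window runs from 60 bases before to 50 after the RefSeq start (build GRCm38.p6), is read 5' to 3' on the gene's strand, and has its longest unbroken run of C and T in capitals. Rpl23 has 3 runs of that length, of which the first is marked.
Rps4x: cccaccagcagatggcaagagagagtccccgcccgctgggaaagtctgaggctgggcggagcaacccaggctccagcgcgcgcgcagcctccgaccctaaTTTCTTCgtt
Rpl23: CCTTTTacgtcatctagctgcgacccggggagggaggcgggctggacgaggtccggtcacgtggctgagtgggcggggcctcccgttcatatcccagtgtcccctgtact
Rps3a1: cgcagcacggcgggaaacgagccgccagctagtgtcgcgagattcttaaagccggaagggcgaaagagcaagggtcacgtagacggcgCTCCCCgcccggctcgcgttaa
Rpl31: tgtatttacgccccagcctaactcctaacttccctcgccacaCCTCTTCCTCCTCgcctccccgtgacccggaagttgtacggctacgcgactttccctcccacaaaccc
Rps27: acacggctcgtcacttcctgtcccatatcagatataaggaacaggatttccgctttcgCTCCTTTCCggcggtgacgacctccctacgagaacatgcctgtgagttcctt
Rpl10: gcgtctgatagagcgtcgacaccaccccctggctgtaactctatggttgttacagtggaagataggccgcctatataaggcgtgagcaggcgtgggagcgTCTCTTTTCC
Rps18: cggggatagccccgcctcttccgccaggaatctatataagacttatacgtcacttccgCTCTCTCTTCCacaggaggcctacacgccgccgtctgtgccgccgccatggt
Rpl18: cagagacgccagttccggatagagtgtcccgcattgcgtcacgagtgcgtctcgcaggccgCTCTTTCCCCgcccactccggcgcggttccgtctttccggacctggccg
Rps9: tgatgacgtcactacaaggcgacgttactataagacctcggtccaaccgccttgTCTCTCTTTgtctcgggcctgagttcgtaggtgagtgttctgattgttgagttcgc
The windows of Rps4x, Rpl23 and Rps3a1 lie at chrX:102189342-102189451 (minus strand), chr11:97782390-97782499 (minus strand) and chr3:86142619-86142728 (minus strand). Those of Rpl31, Rps27 and Rpl10 lie at chr1:39367791-39367900 (plus strand), chr3:90213599-90213708 (minus strand) and chrX:74270756-74270865 (plus strand). Those of Rps18, Rpl18 and Rps9 lie at chr17:33955616-33955725 (minus strand), chr7:45718011-45718120 (plus strand) and chr7:3703981-3704090 (plus strand).

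The longest run was 13 bases in Rpl31, 10 in Rpl10 and 9 in Rps27, but 7 in Rps4x and 6 in Rpl23 and in Rps3a1. Among the 3 genes of largest p it was 11 bases in Rps18, 10 in Rpl18 and 9 in Rps9. The marked run began at -2 in Rps27 and Rps18, -6 in Rps9 and 1 in Rpl18, counted in bases from the RefSeq start. It began at 40 in Rps4x and Rpl10, 28 in Rps3a1, -18 in Rpl31 and -60 in Rpl23, away from that start. A marked run is therefore not always where a TOP run would lie. A RefSeq window was found for 56 of the 76 canonical genes. On the sense strand, a run of at least 8 C or T letters stood at any place in the window of 45 of these 56 (80.4%). The share was 38.5% of all 27025 genes with a window of the same length. Among canonical genes higher at 10 months in KI the count was 16 of 23 (69.6%), against 29 of 33 other canonical genes (87.9%). The 7 letters CCGGAAG or their complement CTTCCGG, the core bound by ETS-family factors, stood in the full 300-base window of 23 of the 56 (41.1%), against 9.14% of all genes. The C and T letters of CTTCCGG can overlap a pyrimidine run. The RefSeq start need not be the start used in cortex, and a match describes letters only.

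Library totals ran from 42896149 to 57447015 counts, and the ribosomal protein genes took 0.711% to 1.10% of them. KI 10-month replicate 5 had 54206 counts of Xist, the transcript of the inactive X of females, and 1 count of the Y-linked Ddx3y, which goes against the label of male mice. KI 3-month replicate 3 had the smallest total and the lowest share of ribosomal protein counts. In that library high-GC genes of all kinds were low, with a slope over genes of -0.49 log2 units per 10 points of GC, while the other 19 libraries ran from -0.25 to 0.28. The counts and medians of each comparison are given with and without these 2 libraries. Abca7 had 1046 to 1608 counts in KI and 1112 to 1673 counts in control libraries at 10 months, and 794 to 1595 counts in KI and 1188 to 1548 counts in control libraries at 3 months. A count of the gene cannot show a substitution, so it does not check the genotype labels.

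Canonical genes were the bulk of the expression. By CPM, counts scaled to a common library total after trimmed-mean (TMM) scaling, the highest were Rpl4 with a mean of 484 over the 20 libraries, Rpl3 with 317, Rps3 with 258, Rpl9 with 250.2 and Rps4x with 239. Of the genes tested, the lowest were Rps12-ps3, Rps18-ps3, Rpl13-ps3, Rpl3l and Rpl13a-ps1, with means of 0.234 to 0.285 CPM. Per kilobase of the longest coding transcript, Rpl4 again led the canonical genes and Rps27 came next. The 12 genes under the filter had 0 to 142 counts summed over all libraries. Among them Rpl10l, a retrogene used in testis, had 0 counts, and Rpl39l, also known from testis, had 44.

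The ribosomal protein genes were higher at 10 than at 3 months in KI cortex. At an adjusted p under 0.05 in edgeR's quasi-likelihood test, 33 of 93 were higher and 0 lower, against 5.66% of all tested genes higher and 8.06% called in either direction. Their median log2 fold change was 0.25, against 0.00 over all tested genes, and 87 of 93 lay above 0. The changes were small, from 0.19 to 0.50 on the log2 scale among the 30 canonical genes called, and were spread over both subunits. Groups did not overlap, with every 10-month library above every 3-month library, for 31 of 93 genes, against 5.34% of all tested genes. Without KI 10-month replicate 5 and KI 3-month replicate 3 together, 24 genes were called, all higher, and the median was 0.17. Leaving out each KI library in turn left 24 to 34 called, all higher, and 24 of the 33 were called in each of these fits.

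**Figure D1:**
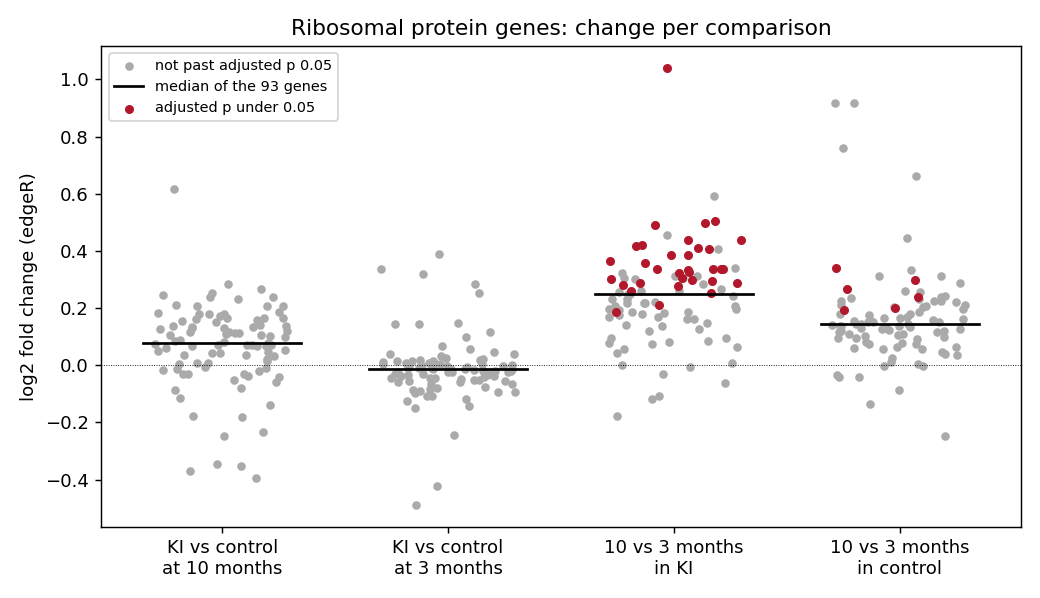
Log2 fold change of the 93 tested ribosomal protein genes (1 point each, y axis) in 4 comparisons, with red points at an adjusted p under 0.05 and a black line at the median. The medians are 0.08 and -0.01 for KI against control at 10 and at 3 months, and 0.25 and 0.14 for 10 against 3 months in KI and in control, with 33 and 6 red points, all above 0.

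Rps4x (ENSMUSG00000031320, chrX:102184941-102189394), an X-linked protein of the small subunit, had the smallest p. It had 286, 294, 327, 274 and 254 CPM in KI at 10 months (replicates 3 to 7 in order), against 229, 216, 211, 193 and 210.4 CPM in KI at 3 months. Every 10-month value was above every 3-month value, with replicate 5 highest at 10 months and replicate 6 lowest at 3 months. The log2 fold change was 0.44 ± 0.07 (SE), with adjusted p = 0.000152 in edgeR.

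Rpl23 (ENSMUSG00000071415, chr11:97777527-97782437) is a large-subunit protein that can also bind Mdm2. It had 146, 150.3, 173, 142 and 129.6 CPM in KI at 10 months, against 108, 114, 113, 110.0 and 110.4 CPM in KI at 3 months. The 3-month values lay within a narrow band and all 10-month values above it. The log2 fold change was 0.42 ± 0.07, with adjusted p = 0.0002. Rps3a1 (ENSMUSG00000028081, chr3:86137940-86142702) sits on the small subunit near the exit of the messenger RNA. It had 254, 268, 284, 267 and 238 CPM in KI at 10 months, against 208, 215, 205, 199 and 211 CPM in KI at 3 months, again without overlap. Its log2 fold change was 0.34 ± 0.05, with adjusted p = 0.000207.

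Rpl31 (ENSMUSG00000073702, chr1:39367842-39371911) lines the large subunit near the exit of the peptide tunnel, and its gene overlaps Tbc1d8. It had 115, 122, 132, 113 and 103 CPM in KI at 10 months, against 82.5, 87.2, 88.1, 83.3 and 90.4 CPM in KI at 3 months. The groups were separate, and the log2 fold change was 0.44 ± 0.07 (adjusted p = 0.000209). Rps27 (ENSMUSG00000090733, chr3:90212725-90213615) is a zinc-finger protein of the small subunit. It had 137, 147, 196, 135 and 125 CPM in KI at 10 months, against 109.7, 104, 102, 99.0 and 108 CPM in KI at 3 months. Replicate 5 stood well above the other 10-month libraries, and all 5 were above the 3-month values. The log2 fold change was 0.50 ± 0.09, with adjusted p = 0.000792.

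Rpl10 (ENSMUSG00000008682, chrX:74270812-74273135) joins the large subunit late in its maturation and is X-linked. It had 174, 171, 179, 173 and 159.7 CPM in KI at 10 months, against 128, 139, 142, 138 and 149 CPM in KI at 3 months, with no overlap. The log2 fold change was 0.30 ± 0.05, with adjusted p = 0.000838. Rps24 (ENSMUSG00000025290, chr14:24490681-24496146), a small-subunit protein mutated in some human Diamond-Blackfan anaemia, had 278, 292, 355, 268 and 238 CPM in KI at 10 months, against 214, 212, 205, 189 and 198 CPM in KI at 3 months. All 10-month libraries were above the 3-month libraries, replicate 5 again the highest, and the log2 fold change was 0.49 ± 0.09 (adjusted p = 0.000842).

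Rpl5 (ENSMUSG00000058558, chr5:107900502-107909005) and Rpl11 form, with a small ribosomal RNA, the complex that inhibits Mdm2 when ribosome assembly is disturbed. Rpl5 had 202, 215, 256, 204 and 188 CPM in KI at 10 months, against 176, 163, 159, 149 and 156 CPM in KI at 3 months. The ranges were separate, with a log2 fold change of 0.41 ± 0.07 and adjusted p = 0.000909. Rpl11 had 112, 108, 109, 103 and 98.0 CPM in KI at 10 months, against 64.0, 77.7, 89.5, 91.5 and 99.5 CPM in KI at 3 months. Here the highest 3-month library, replicate 7, was above the lowest 10-month library, also numbered 7. Its log2 fold change was 0.33 ± 0.09 (adjusted p = 0.0285), and it lost its call in 4 of 10 fits that left out 1 KI library.

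**Figure D2:**
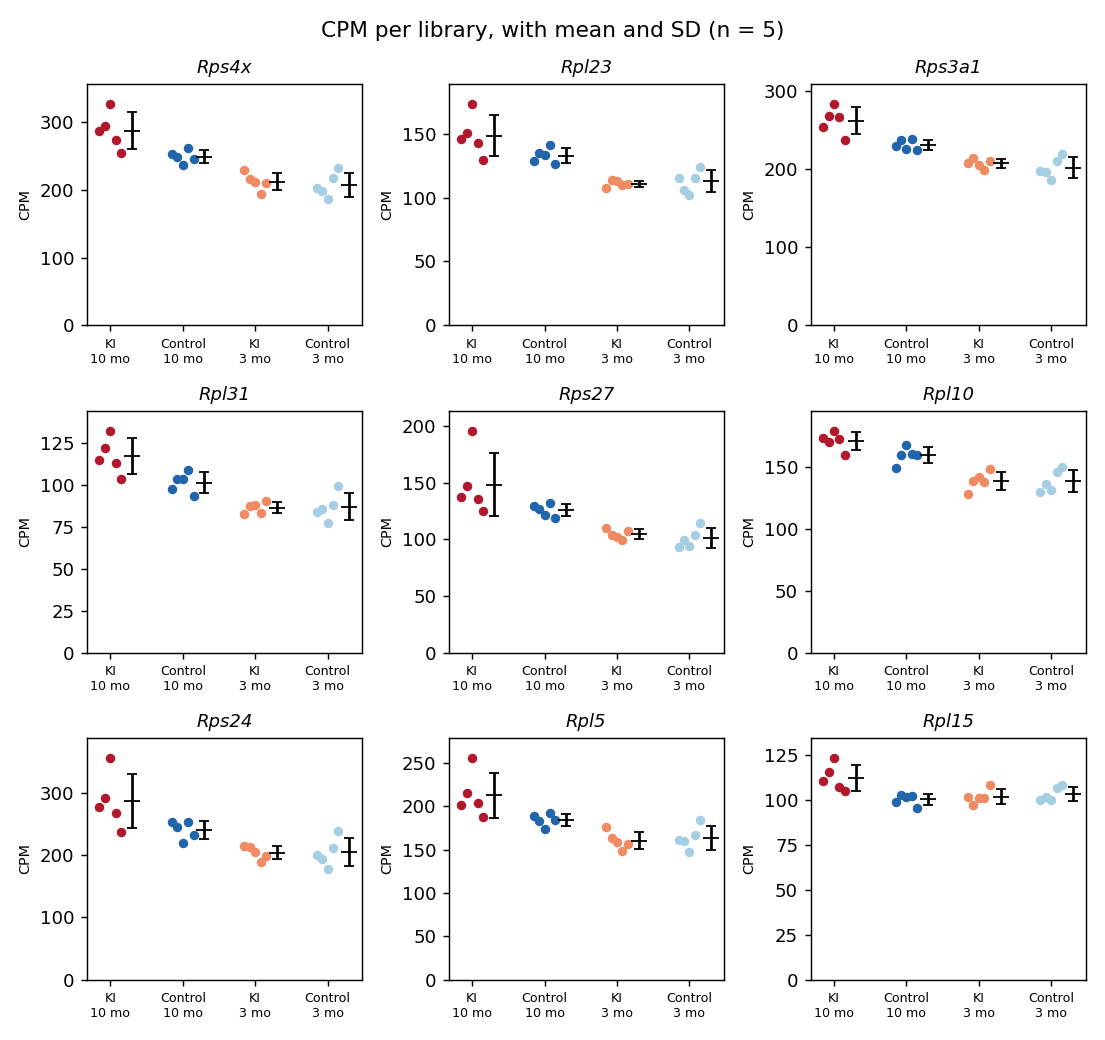
CPM in every library (points, y axis from 0) for the 8 canonical genes of smallest p between 10 and 3 months in KI and for Rpl15, with the group mean and SD (n = 5) in black. For the 8 leading genes every KI 10-month point is above every KI 3-month point, and KI 10-month replicate 5 is the highest of all 20 libraries.

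The same comparison in control cortex gave fewer calls. At an adjusted p under 0.05 in edgeR, 6 of 93 genes were higher at 10 months and 0 lower, against 3.72% of all tested genes higher and 4.07% called in either direction. The median log2 fold change was 0.14, 85 of 93 lay above 0, and groups did not overlap for 12 of 93 genes, against 4.56% of all tested genes. The 6 were Rps4x, Rpl10, Rps3a1, Rpl23, Rpl21 and Rps27l. The number of calls rested on few libraries. It was 0 without control 3-month replicate 6, 7 or 8 or control 10-month replicate 7, 9 or 10, with 1 called without 10-month replicate 6 or 8, 3 without 3-month replicate 9 and 9 without 3-month replicate 10. Over these fits the median stayed between 0.10 and 0.19. Without the 2 KI libraries in doubt, which enter the control comparison only through scaling and the shared estimate of spread, 13 were called, all higher, and the median was 0.15.

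Rps4x had 253, 248, 236, 261 and 246 CPM in control at 10 months (replicates 6 to 10 in order), against 202, 198, 186, 217 and 232 CPM in control at 3 months. All 10-month values were above all 3-month values. The log2 fold change was 0.27 ± 0.07, with adjusted p = 0.0241 in edgeR. Rpl21, a large-subunit protein, had 252, 253, 235, 261 and 239 CPM in control at 10 months, against 197, 164, 194, 214 and 239.8 CPM in control at 3 months. Replicate 10 at 3 months was above the 2 lowest 10-month libraries, and the log2 fold change was 0.30 ± 0.08 (adjusted p = 0.0464). Rps27l, a p53-inducible paralog of Rps27, had 9.51, 9.31, 10.2, 9.15 and 8.99 CPM in control at 10 months, against 7.3, 7.2, 6.43, 8.36 and 8.01 CPM in control at 3 months. These did not overlap, with a log2 fold change of 0.34 ± 0.10 and adjusted p = 0.0489. Rpl10, Rps3a1 and Rpl23 had log2 fold changes of 0.20 ± 0.05, 0.19 ± 0.05 and 0.24 ± 0.07.

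Of the genes called, 5 were shared, which is 83.3% of the 6 in control and 15.2% of the 33 in KI. Rps27l was called in control alone, and its log2 fold change in KI was 0.31 ± 0.10 (adjusted p = 0.0509). The difference between the age effects was tested by the genotype by age interaction, in which edgeR called 0 of 93 genes and 0% of all tested genes. At an unadjusted p under 0.05 there were 5 of 93, against 4.5% of all tested genes. DESeq2 and limma-voom also called 0. The median interaction was 0.10 on the log2 scale, and 75 of 93 lay above 0. It rested on KI 3-month replicate 3, without which the median was 0.02 and 50 of 93 lay above 0. The median was 0.06 without KI 3-month replicate 4 and 0.05 without control 10-month replicate 10. It was 0.13 without KI 3-month replicate 6 or 7. Without both libraries in doubt the median was also 0.02, with 50 of 93 above 0 and 0 called. The age effect was not shown to differ between KI and control.

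The genes called between the ages included members of both subunits. Of the 30 canonical small-subunit genes, 11 rose between the ages in KI and 2 in control, with median log2 fold changes of 0.25 and 0.14. Of the 46 large-subunit genes, 19 rose in KI and 3 in control, with medians of 0.26 and 0.14. Over all tested genes 5.66% were higher in KI and 3.72% in control. The few control calls of either subunit lie near that share and rested on few libraries. The 4 X-linked canonical genes, Rps4x, Rpl10, Rpl36a and Rpl39, all rose in KI, and Rps4x and Rpl10 rose in control. Rpl39 had 85.7, 93.9, 139, 81.0 and 76.2 CPM in KI at 10 months, against 76.9, 72.0, 71.6, 66.4 and 71.5 CPM in KI at 3 months. The value of replicate 5, the library with Xist, was far above the others, and the lowest 10-month library was below the highest 3-month library. The log2 fold change of Rpl39 was 0.41 ± 0.12 (adjusted p = 0.0393), and it held its call in 3 of 10 fits that left out 1 KI library. Rpl36a, Rps4x and Rpl10 held theirs in all 10.

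The acidic stalk of the large subunit, which recruits elongation factors, is made of Rplp0, Rplp1 and Rplp2. None of the 3 was called in any of the 6 contrasts, and at an unadjusted p under 0.05 the count was also 0, as it was by DESeq2 and limma-voom at the adjusted threshold. Rplp1 had 91.5, 73.2, 70.5, 84.5 and 84.1 CPM in KI at 10 months, against 29.1, 61.7, 78.3, 118 and 118 CPM in KI at 3 months. The 3-month values were the more scattered and enclosed all the 10-month values, with a log2 fold change of -0.01 ± 0.30. In control, Rplp1 had 59.7, 76.7, 157, 111 and 70.6 CPM at 10 months, against 75.2, 113, 102, 74.7 and 66.9 CPM at 3 months, with replicate 8 at 10 months the highest of all. For Rplp0 and Rplp2 the log2 fold changes between the ages in KI were 0.12 ± 0.17 and 0.27 ± 0.15.

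Some ribosomal proteins are known for further roles. Rps6, the substrate of S6 kinases downstream of mTOR, had 94.4, 93.2, 96.4, 92.7 and 92.6 CPM in KI at 10 months, against 67.5, 74.3, 80.7, 82.0 and 89.0 CPM in KI at 3 months. The 10-month libraries lay close together above all 3-month libraries, and the log2 fold change was 0.25 ± 0.07 (adjusted p = 0.0175). In control the change of Rps6 was 0.16 ± 0.07 (adjusted p = 0.266). Rps19, the gene most often mutated in human Diamond-Blackfan anaemia, did not pass in either genotype, with 0.25 ± 0.11 in KI and 0.12 ± 0.11 in control. Rpl13a, which in human cells also silences inflammatory messages, had 0.31 ± 0.12 in KI and 0.10 ± 0.12 in control, and its gene overlaps 4 snoRNA genes and Flt3l. Rpsa, also known as the laminin receptor precursor, had 0.15 ± 0.11 and 0.01 ± 0.11. Rpl41, the smallest protein of the ribosome, had 0.14 ± 0.17 and 0.10 ± 0.17. Adjusted p of these 4 genes ran from 0.151 to 0.985.

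Rpl29 was the most variable canonical gene, with a within-group SD of 0.66 log2 units against a median of 0.17 over the canonical genes. It had 66.6, 57.6, 51.0, 64.2 and 57.0 CPM in KI and 44.3, 31.6, 78.1, 68.7 and 28.7 CPM in control at 10 months. At 3 months it had 12.0, 48.0, 56.3, 70.9 and 69.2 CPM in KI and 30.3, 36.7, 58.9, 54.4 and 51.2 CPM in control. Low and high libraries occurred in 3 of the 4 groups, and the KI 10-month group was the tightest. Its changes between the ages were 0.21 ± 0.35 in KI and 0.12 ± 0.35 in control.

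Between KI and control, edgeR called none of the ribosomal protein genes. At 10 months 0 of 93 passed, against 0.0612% of all tested genes, and 17 of 93 had an unadjusted p under 0.05, against 7.86% of all tested genes. The median log2 fold change was 0.08, and 69 of 93 lay above 0. The median was 0.04 without control 10-month replicate 6 or 10 and 0.11 without control 10-month replicate 8 or 9. Of the 17 genes, 14 were among the 38 canonical genes of lower GC content, under 51.7%, and 1 among the 38 of higher GC. The lower-GC and higher-GC genes had medians of 0.13 and 0.02. At 3 months 0 of 93 passed, against 0.0255% of all tested genes, and 3 had an unadjusted p under 0.05, against 3.8%. The median there was -0.01, with 32 of 93 above 0, but the sign of this median did not hold. Without KI 3-month replicate 3 it was 0.05 and 76 of 93 lay above 0, and it was also above 0 without control 3-month replicate 7 or 10 (0.002 and 0.0071). Averaged over both ages 0 passed, against 0.0764%, and 6 had an unadjusted p under 0.05, against 6.52%, with a median of 0.03, which leaving out 1 library at a time moved to between 0.02 and 0.06. Without both libraries in doubt the medians were 0.06 at 10 months, 0.05 at 3 months and 0.06 over both ages, with 0 called in each. DESeq2 and limma-voom called 0 in each of these 3 contrasts as well.

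At 10 months the genes of smallest p were Rps3a1, Rpl15, Rpl10-ps3, Rps4x, Rpl31 and Rps24. Rps3a1 had 254, 268, 284, 267 and 238 CPM in KI and 229.7, 237, 226, 239 and 225 CPM in control. The lowest KI library was below the highest control library, and the log2 fold change was 0.18 ± 0.05 (adjusted p = 0.372 in edgeR). Rpl15 (ENSMUSG00000012405, chr14:18267823-18271391), a large-subunit protein whose gene overlaps Nkiras1, had 111, 116, 123, 107 and 105 CPM in KI and 99.1, 103, 102, 102 and 95.7 CPM in control. It was the only member whose 10-month groups did not overlap, 1 of 93, against 0.907% of all tested genes higher without overlap. Its log2 fold change was 0.16 ± 0.05, with adjusted p = 0.394. Rps4x, Rpl31 and Rps24 had log2 fold changes of 0.21 ± 0.07, 0.21 ± 0.07 and 0.25 ± 0.09, with adjusted p of 0.439, 0.439 and 0.45.

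Rpl10-ps3, a near-copy of Rpl10 on chromosome 9 listed as protein-coding, had 2.22, 1.91, 1.52, 1.42 and 1.94 CPM in KI and 1.14, 0.732, 1.07, 1.61 and 1.27 CPM in control at 10 months. At 3 months it had 1.11, 0.903, 0.967, 0.854 and 0.557 CPM in KI and 1.21, 1.2, 1.01, 1.35 and 1.1 CPM in control. KI was mostly above control at 10 months and mostly below it at 3 months. The log2 fold changes were 0.62 ± 0.19 and -0.42 ± 0.20 (adjusted p = 0.401 and 1), and the interaction was 1.04 ± 0.27 (adjusted p = 0.752). Between 10 and 3 months in KI it rose by 1.04 ± 0.19 (adjusted p = 0.00129), the largest log2 fold change of the 93. Its counts, 32 to 113 per library, are uncertain because reads of Rpl10 can be placed on it.

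At 3 months the genes of smallest p were Rpl23a-ps3, Rpl37a, Rpl10-ps3, Rps27l, Rpl7 and Rpl12, and none passed. Rpl23a-ps3 had 2.22, 1.77, 1.69, 1.44 and 1.79 CPM in KI and 1.49, 1.32, 1.3, 1.35 and 1.58 CPM in control. The ranges overlapped at their edges, with a log2 fold change of 0.34 ± 0.13 and adjusted p = 1. Rpl37a, a large-subunit protein, had 45.5, 67.2, 77.3, 39.5 and 40.5 CPM in KI and 67.6, 83.2, 74.6, 76.0 and 77.4 CPM in control. Replicates 3, 6 and 7 of KI were low, replicate 4 lay just below the control range and replicate 5 within it, with a log2 fold change of -0.49 ± 0.20 (adjusted p = 1). In replicates 6 and 7, 61.4% and 61.3% of the CPM of Rpl37a and its copy Gm4149 together lay on the copy, against 20.1% to 22.6% in the other 8 libraries at 3 months. With the copies' counts added to Rpl37a, a choice made after seeing the data, the log2 fold change was -0.10. The 3 stalk genes lay below 0 in KI against control at both ages, at 10 months with -0.23 ± 0.30 for Rplp1, -0.12 ± 0.15 for Rplp2 and -0.04 ± 0.17 for Rplp0, each within about 1 SE of 0.

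Paralogs were measured beside their partners, on the CPM scale in KI and control at 10 months (mean ± SD, n = 5). Rpl22l1, the paralog of Rpl22, averaged 81.5 ± 27.4 CPM in KI and 67.0 ± 10.0 CPM in control. Rpl22 averaged 102 ± 4.33 CPM in KI and 99.0 ± 4.99 CPM in control. Rpl22 rose between the ages in KI by 0.19 ± 0.05 (adjusted p = 0.0139), and Rpl22l1 had 0.34 ± 0.16 (adjusted p = 0.213). KI 10-month replicate 5 alone had 127 CPM of Rpl22l1, above the 55.4 to 85.4 CPM of all other libraries.

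Rpl36al, the autosomal relative of Rpl36a, averaged 37.7 ± 3.11 CPM in KI and 34.2 ± 4.52 CPM in control at 10 months. Rpl36a averaged 72.2 ± 12.6 and 63.8 ± 3.26 CPM. Rps27l averaged 10.2 ± 1.0 CPM in KI and 9.44 ± 0.477 CPM in control. Rps27rt, a retrogene of Rps27, averaged 14.4 ± 2.94 and 11.9 ± 1.2 CPM. Both stood far below Rps27 itself. Rps27rt rose between the ages in KI (0.50 ± 0.12, adjusted p = 0.00864), beside its partner's 0.50 ± 0.09.

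Rps4l averaged 3.52 ± 0.743 CPM in KI and 4.19 ± 1.55 CPM in control at 10 months, and Rpl7l1 averaged 38.6 ± 2.93 and 37.6 ± 3.02 CPM. Rpl3l, the striated-muscle relative of Rpl3, was near the floor at 0.275 ± 0.158 and 0.358 ± 0.109 CPM. These 3, Rps19bp1 and Rpl36al were called in no contrast. Of the 8 tested paralogs and other genes, 1 rose between the ages in KI and 1 in control. Of the 9 tested genes with pseudogene-type symbols, 2 rose in KI and 0 in control. The shares over all tested genes were 5.66% higher in KI and 3.72% in control, and sets this small cannot be told from them.

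The canonical genes moved together from library to library. After group means were removed, the median correlation between pairs of the 76 genes was 0.52 over the 20 libraries, against 0.00 over all pairs of tested genes and 0.46 among 83 nuclear genes of oxidative phosphorylation. These points share library, depth and base composition. KI 3-month replicate 3 was the lowest of the 20 libraries for 50 of 76 genes and KI 10-month replicate 5 the highest for 30. Control 10-month replicate 8 was the highest for 28.

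GC content divided the genes. Transcripts ranged from 41.3% to 60.8% GC around a median of 51.7%. Of the 38 genes of lower GC, 25 rose between the ages in KI, with a median of 0.30, and of the 38 genes of higher GC 5 rose, with a median of 0.19. In control the counts were 5 of 38 and 0 of 38, with medians of 0.15 and 0.13. Among all tested genes, 5.66% were higher in KI and 3.72% in control. Without the 2 libraries in doubt, 20 lower-GC and 2 higher-GC genes were called in KI, with medians of 0.23 and 0.09, and 11 and 1 in control. KI 3-month replicate 3 was the lowest library for 33 of the 38 high-GC genes, and KI 10-month replicate 5 the highest for 26 of the 38 low-GC genes. The median pairwise correlation was 0.86 among high-GC and 0.45 among low-GC genes, and 0.77 and 0.51 without the 2 libraries in doubt. With a per-library correction for GC, chosen after seeing the data, 24 low-GC and 14 high-GC genes were called in KI and 10 and 2 in control. Calls rose over all 19623 tested genes as well. In either direction they were 3129 in KI and 1299 in control with this correction, against 1582 and 799 without it.

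**Figure D3:**
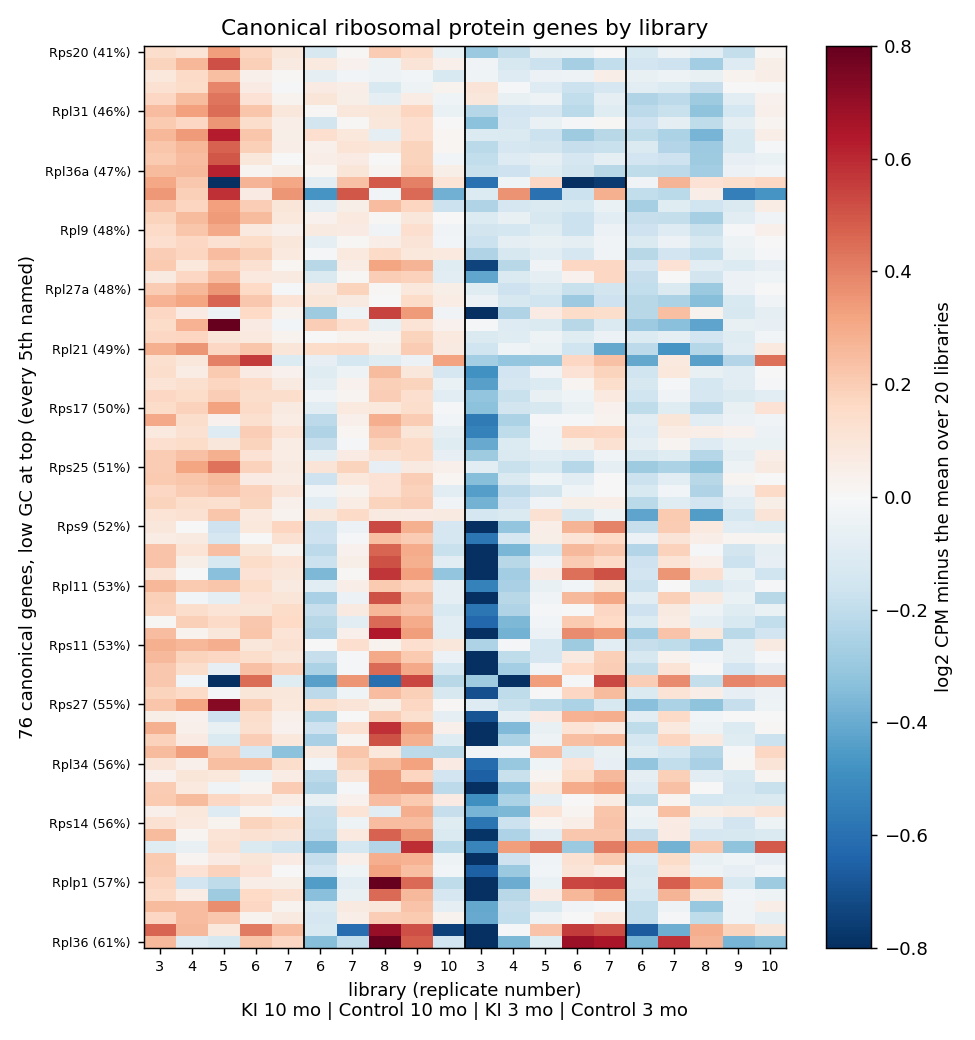
Log2 CPM of the 76 canonical genes minus each gene's mean over the 20 libraries (colour, ending at -0.8 and 0.8), with genes ordered down the page by rising GC content and libraries in columns by group. KI 3-month replicate 3 is dark blue over most high-GC genes, KI 10-month replicate 5 is red over low-GC genes, and the KI 10-month block is the most evenly red.

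**Figure D4:**
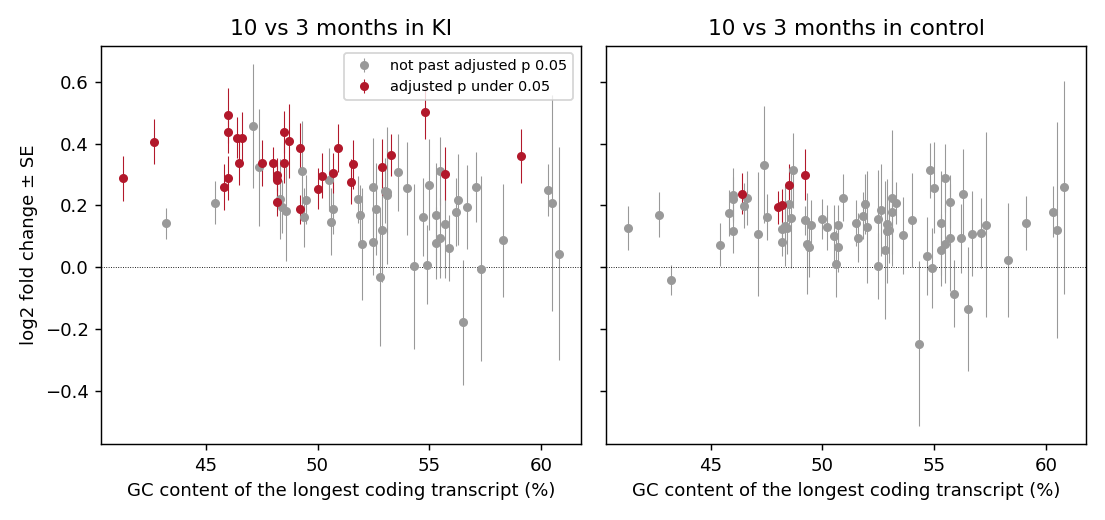
Log2 fold change with SE (y axis) of each canonical gene between 10 and 3 months against the GC content of its longest coding transcript (x axis), in KI at left and control at right, with red points at an adjusted p under 0.05. In KI 25 of the 30 red points lie below the median GC of 51.7%, and in control all 5 do.

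The change between the ages also differed with annotated transcript length. Among other protein-coding genes with transcripts of up to 600 bases, the median log2 fold change between the ages was 0.16 in KI and 0.12 in control, against 0.04 and 0.01 at 1501 to 2500 bases. The medians of the canonical genes lay above those of other genes in each length class up to 2500 bases: 0.24 in KI and 0.16 in control for the 15 genes of up to 600 bases, and 0.25 and 0.13 for the 28 genes of 601 to 1000 bases, where other genes had 0.11 and 0.07. For the 21 genes of 1001 to 1500 bases the medians were 0.26 and 0.16, where other genes had 0.07 and 0.04. With GC and length both corrected, a choice made after seeing the data, 28 genes were called in KI and 10 in control, with medians of 0.15 and 0.08. Of all 19623 tested genes, that fit called 2713 in KI and 1180 in control, in either direction.

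Ribosomal protein genes have many retrocopies, and reads can be placed on either. Of the 76 canonical genes, 65 had at least 1 annotated copy with at least 95% identity over 200 bases, 435 copies in all, and for 28 genes the copies held over 10% of the summed CPM. Adding the copies' counts to each gene left 31 genes called between the ages in KI and 5 in control, with medians of 0.24 and 0.15. In 42 of the 93 tested genes the gene's span also overlaps another tested gene, most often a snoRNA in an intron, and the strand setting of the counts is not given in the sources used here.

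In 4 pairs, picked out after their values were seen, the division of reads differed from library to library.
Rpl26 and its processed pseudogene Gm15772 (chr5:3236431-3236868, 98.2% identical) are the clearest. The copy held 32.0% to 36.1% of the pair's CPM in 13 libraries and 4.45% to 6.04% in the other 7, with none between. The 13 were all 5 KI and 4 control libraries at 10 months, and 2 KI and 2 control libraries at 3 months. Rps27a, which is made as a fusion with ubiquitin, and Rps27a-ps2 (chr9:83409660-83410126, 99.8% identical) gave 28.0% to 33.0% on the copy in 14 libraries and 9.07% to 11.7% in 6. The 14 were 4 KI and 4 control libraries at 10 months and 3 of each at 3 months.

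Rpl37a and Gm4149 (chr13:75644864-75645226, 99.6% identical) gave 56.9% to 61.4% on the copy in 3 libraries and 20.1% to 22.8% in 17. The 3 were KI 10-month replicate 5 and KI 3-month replicates 6 and 7, where Rpl37a itself was low. Rps18 and Gm10260 (chr13:97760130-97760588, 99.1% identical) gave 30.3% to 32.6% in 3 libraries and 0.106% to 13.4% in 17. Within the 17 the share was either 0.106% to 0.361% or 5.24% to 13.4%, so this pair had more than 1 gap. In each of the 4 pairs libraries of 1 group fell on both sides of the gap below the high libraries, and the 3 high libraries of Rpl37a were all KI. Neither the relation of the division to group nor its source was tested.

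**Figure D5:**
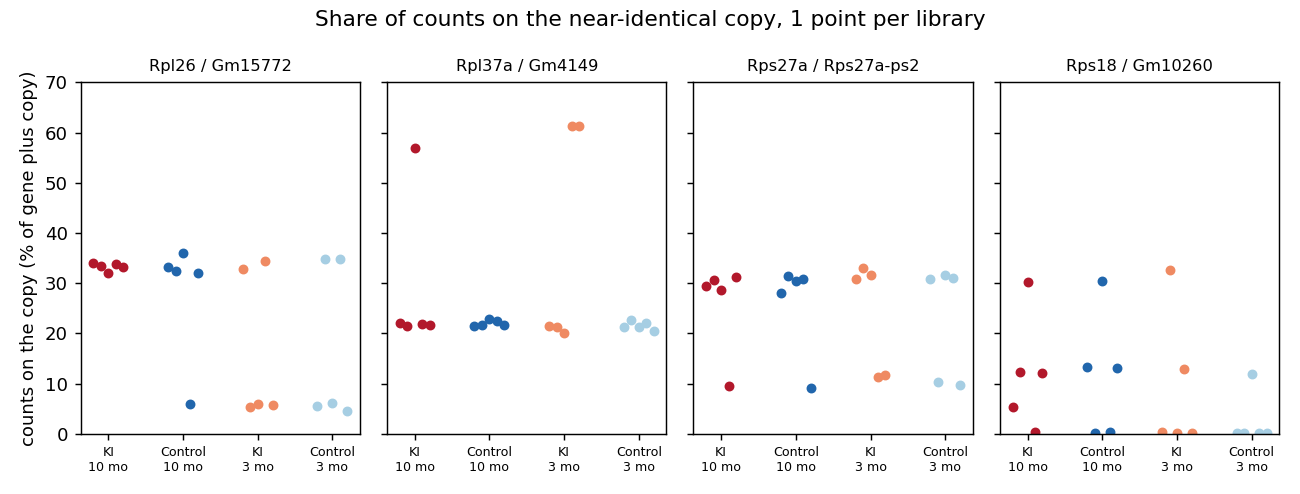
Share of counts on the near-identical copy, as a percent of the gene's plus the copy's CPM (y axis), for 4 pairs with 1 point per library by group. For Rpl26 the points fall at 4.45% to 6.04% and at 32.0% to 36.1% with none between, and in each of the other 3 pairs a gap also separates the highest points.

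Other genes of the translation machinery were counted from lists. Of 23 tested genes from a list of other TOP RNAs, 6 rose between the ages in KI and 1 in control, with median log2 fold changes of 0.13 and 0.07. Of all tested genes 5.66% and 3.72% were higher. A run of at least 8 C or T letters stood in 11 of the 17 listed genes with a RefSeq window (64.7%). Eef1a1, which carries aminoacyl-tRNA to the ribosome, averaged 2284 ± 67.0 CPM in KI at 10 months and 1951 ± 101 CPM in KI at 3 months (SD, n = 5), a log2 fold change of 0.23 ± 0.05 (adjusted p = 0.00318 in edgeR). Eef1b2, Eif3f and Tpt1 rose by 0.27, 0.24 and 0.28. Vim, a filament gene of reactive astrocytes, rose in both, by 1.02 in KI and 0.83 in control. Gas5 and Snhg4, noncoding hosts of snoRNAs, rose in KI by 0.30 and 0.34, 2 of 11 such hosts, against 5.66% of all tested genes higher. Gas5 is on both lists.

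Against the same 5.66% higher, or 8.06% called in either direction, of 11 elongation factors 2, Eef1a1 and Eef1b2, rose in KI, and of 38 initiation factors 2 rose and Eif4g1, the scaffold of the cap-binding complex, fell by 0.19. Of 85 ribosome biogenesis genes 0 rose and Gnl3l fell by 0.23. Of 31 genes of TOP and mTOR control, Eif4ebp3 rose by 0.31 and Mycn and Sesn3 fell by 0.48 and 0.47. None of these lists had a call between the ages in control. Of 76 mitochondrial ribosomal protein genes 0 were called in either genotype, with medians of 0.08 in KI and 0.01 in control. At an unadjusted p under 0.05 there were 16 of 76 in KI and 2 of 76 in control, against 21.2% and 13.6% of all tested genes. Nuclear oxidative phosphorylation genes had 7 of 83 higher in KI and 0 in control, against 5.66% and 3.72% of all tested genes, and in control 3 of 83 had an unadjusted p under 0.05, against 13.6%. Of 19 chaperone and quality-control genes of ribosomal proteins 0 were called in either, with 2 in KI and 0 in control at an unadjusted p under 0.05, against 21.2% and 13.6% of all tested genes.

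Some markers of cell types and neighbouring tissue moved with age in the same libraries. The summed CPM of 10 microglial markers was 798 to 1084 in KI at 10 months and 318 to 364 in KI at 3 months, and 678 to 852 in control at 10 months and 287 to 356 in control at 3 months. In both genotypes 8 of the 10 rose, and none of the 10 was at 0 in all libraries. Of 5 astrocyte markers 2 rose in each genotype. The 5 summed to 2448 to 3046 CPM in KI at 10 months and 1703 to 1847 CPM in KI at 3 months. Their log2 fold changes in KI ran from -0.04 to 2.46 with a median of 0.21, so the sum does not describe an even rise. Neuronal markers, looked at as a check of the cortex label, summed to 6086 to 6948 CPM in KI at 10 months and 6325 to 6629 CPM in KI at 3 months. Of these 5 markers 1 fell in KI and 0 in control. Of 6 thalamic markers 5 fell in KI and 1 in control. Of 5 erythrocyte markers 2 rose in KI. Of 4 endothelial markers 1 rose and 1 fell in KI, and of 3 oligodendrocyte precursor markers 1 fell in KI. Of 5 oligodendrocyte, 4 fibroblast and 4 tested striatal markers 0 were called between the ages in either genotype. Of all tested genes, 8.06% were called in either direction in KI and 4.07% in control. The sum of 6 choroid plexus markers ranged from 22.3 to 2194 CPM over the libraries. Its median was 35.4 CPM in KI and 808 CPM in control at 10 months, and 1034 and 811 CPM at 3 months. Each group held both low and high libraries, and 0 of the 6 were called. The part of these differences in the ribosomal protein values was not tested, and in whole cortex more cells of a type and more RNA per cell cannot be told apart.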

How the data were processed

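The authors deposited raw counts per gene for 20 libraries, whole numbers in 1 table with coordinates, symbols and biotypes, per the file headers. The submitters' processing notes name the build mm10. Aligner, counter and strand setting are not given in the sources used here. Groups were taken from the labels, and the members and lists were chosen with earlier results of these data known.

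Counts were tested in edgeR 4.0.16 (R 4.3.3). Low-count genes were removed by filterByExpr, libraries were scaled by TMM (factors 0.972 to 1.03), and a robust quasi-likelihood F test was fitted to 4 group means with 16 residual degrees of freedom. P-values were adjusted by Benjamini-Hochberg over all 19623 genes of each of 6 contrasts. Replicates differed by a chi-square of 10.9 to 125 per degree of freedom, so counting error was small beside replicate spread in highly counted genes. Genes were named by a rule: the 6 of smallest p per contrast, the 5 highest and 5 lowest, listed proteins of known role and paralogs, those without overlap between genotypes and those with an outlying library. GC and length came from GENCODE transcripts, copies from blastn 2.17.0 and sequences from RefSeq. Scripts were tested on simulated counts. Alternatives used DESeq2 1.42.0, limma 3.58.1 and sva 3.50.0.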

Additional observations from a re-analysis of the deposited data

Results flagged for a closer look

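Of 372 sets of 5 libraries examined, the 93 tested genes in 4 groups, 16 held a library far from the other 4, and chance alone marks about 1 in 20. The values are CPM.

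KI 10-month replicate 5, the library with Xist counts, stood apart in 6 genes. It was above the others for Rpl39 with 139, Rps27rt with 19.5 and Rpl9-ps6 with 17.9, and below them for Rpl37a with 36.8, Rpl18 with 35.5 and Rpl8 with 104. The other 4 libraries of its group had 76.2 to 93.9 of Rpl39 and 80.0 to 85.4 of Rpl37a. In replicate 5, 56.9% of the CPM of Rpl37a and its copy Gm4149 together lay on the copy. The pair's summed CPM was 85.5 there, against 101.8 to 109.7 in the other 4.

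Control 3-month replicate 7 was above its group for Rpl35 with 49.3, Rpl37 with 88.5 and Rps28 with 44.3, and below it for Rpl3l with 0.168. Control 3-month replicate 10 was above its group for Rps12-ps3 with 0.412. KI 3-month replicate 5 was above its group for Rpl30 with 112.

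In control at 10 months, replicate 10 was high for Rps27a with 139, replicate 9 for Rpl26 with 218, and replicate 7 for Rpl3 with 349 and Rpl3l with 0.549. For Rps27a and Rpl26 these are libraries in which little of the pair's CPM lay on the near-identical copy.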

How the results depend on the processing

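The number of genes called was 0 in both genotype comparisons, their average and the interaction under every alternative run. The medians of the 6 contrasts moved by less than the spread between replicates (SD 0.138). This limit is wide. It exceeds the medians of both genotype comparisons, their average and the interaction, and cannot show that these held. Without KI 3-month replicate 3, the median of KI against control at 3 months turned to 0.05. It was 0.04 with limma-voom and 0.06 with the replicate block, which gave 0.20 at 10 months and 0.13 over both ages. The interaction had 0.02 without KI 3-month replicate 3. With GC and length both corrected, the medians between the ages went from 0.25 to 0.15 in KI and from 0.14 to 0.08 in control. No call between the ages changed direction. For 10 against 3 months in KI, 33 genes were called and all alternatives stayed within 1.5 times of that, 24 to 43, except 1 surrogate variable with 61. In control, 6 genes were called, and the count was 3 with RLE scaling, 1 with no low-count filter, 19 with limma-voom, 23 with 1 surrogate variable, 10 at a threshold of 0.10, 13 without the 2 libraries in doubt and 0 to 9 with each library left out. Corrections chosen after seeing the data gave 13 for GC and 10 for GC and length. Calls over all 19623 tested genes, in either direction, also rose in several of these fits. In the main fit they were 1582 in KI and 799 in control. With limma-voom they were 3027 and 1254, and with 1 surrogate variable 4111 and 1962. At a threshold of 0.10 they were 2289 and 1046. Without the 2 libraries in doubt they were 1582 and 1052. With GC corrected they were 3129 and 1299, and with GC and length 2713 and 1180. Of the 33 calls in KI, 25 were also called with both corrections and 18 under every alternative. The cause of these shifts was not tested. Replicate numbers were not treated as pairs in the main fit. Over 14 same-numbered pairs the correlation of deviations ran from -0.228 to 0.284, with 3 over 0.1. With no differently numbered pairs set beside them, these values cannot decide whether the numbers pair the libraries. With the replicate number as a block, 2 genes were called in control and 30 in KI. Fits of only the compared libraries were not made for the average and the interaction, which use all 4 groups. Genes with few counts, such as Rpl3l, allow no statement on small differences.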
